A study of Mus musculus with 6 samples.

Results

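The genes of systemic and cellular iron handling followed here in mouse skeletal muscle were Hamp (hepcidin), Bmp6, Tfrc, Trf, Slc11a1, Slc11a2, Fth1, Slc40a1, Aco1 and Ireb2. A probe set, the group of short oligonucleotides that reads a transcript on the array, was taken where the platform annotation gave it only that gene's symbol. This gave 20 of the 22690 probe sets on the array, for 9 of the 10 genes and of the 12393 genes the array could name, since the only probe set of Trf (transferrin) also carried the symbol Srprb. The 10 genes were chosen by their measured differences between TFEB-overexpressing and GFP control muscle, with Hamp standing out, so those differences are described here without a test.

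Muscle of 3 wild-type C57BL/6 mice had been injected with an adeno-associated virus (AAV) that expresses murine Tfeb (Tcfeb), and muscle of 3 other wild-type C57BL/6 mice with an AAV that expresses green fluorescent protein (GFP). The mice were 1 month old per the labels, while the text of the study calls them adult. In both vectors, given intramuscularly, the insert stood behind the ubiquitous cytomegalovirus promoter. Any cells at the site that took up the virus, muscle fibres or others, could thus express it. Which muscle was profiled is not given in the labels. Each mouse gave 1 array, and the values are RMA levels on a log2 scale, in which a difference of 1 is a doubling.

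Hepcidin is a peptide hormone made mainly by hepatocytes, which binds the iron exporter ferroportin (Slc40a1) and has it degraded, so that less iron leaves gut cells and macrophages. Its transcription is known to be driven through BMP receptors and SMAD proteins, with BMP6 as a main ligand, and through interleukin-6 and STAT3. Inside cells, the iron regulatory proteins encoded by Aco1 and Ireb2 bind iron-responsive elements in mRNAs when iron is scarce, which stabilises the mRNA of the transferrin receptor (Tfrc) and blocks translation of ferritin (Fth1) and ferroportin.

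The delivered gene was read by 1 probe set of Tfeb, with log2 levels of 7.92, 7.68 and 7.61 in TFEB-overexpressing muscles and 8.49, 8.47 and 8.58 in GFP control muscles. It was thus 1.71-fold lower in the group labelled as overexpressing, and the sources used here do not say whether its probes lie within the vector's cDNA. The group names below stand for the vector each library is labelled with, and every direction rests on those labels. GFP control replicate 2 stood apart, with 844 and 725 probe sets over 2-fold from GFP control replicates 1 and 3, against 45 to 101 between any pair of TFEB-overexpressing arrays and 87 between GFP control replicates 1 and 3. Markers of fast skeletal muscle fibres were bright in every array, and their mean over 13 genes lay between 13.97 and 13.99 in TFEB-overexpressing arrays and between 13.99 and 14.0 in GFP control arrays. Array signals are known to saturate at such levels, so this closeness does not measure fibre content.

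Mice carry a pair of neighbouring hepcidin genes, Hamp and Hamp2, and the 250 bases before their starts are shown because known control elements of hepcidin lie there and because the copies bear on how their probe sets can be read. The sequences are those of RefSeq in GRCm38.p6, at chr7:30944030-30944279 for Hamp and chr7:30924182-30924431 for Hamp2, both on the minus strand and read 5′ to 3′ towards the gene. Capitals mark GGCGCC, the core of the BMP-responsive element, and TTCNNNGAA, the form of a STAT site.
Hamp: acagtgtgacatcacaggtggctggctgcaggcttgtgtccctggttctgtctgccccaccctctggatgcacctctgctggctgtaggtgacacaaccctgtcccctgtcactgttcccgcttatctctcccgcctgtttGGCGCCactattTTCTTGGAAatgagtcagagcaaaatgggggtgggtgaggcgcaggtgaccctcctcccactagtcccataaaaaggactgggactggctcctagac
Hamp2: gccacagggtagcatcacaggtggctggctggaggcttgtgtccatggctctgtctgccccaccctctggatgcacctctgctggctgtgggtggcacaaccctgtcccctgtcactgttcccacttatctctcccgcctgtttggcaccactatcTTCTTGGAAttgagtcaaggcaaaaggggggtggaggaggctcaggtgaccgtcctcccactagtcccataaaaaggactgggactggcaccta

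Over the 247 aligned positions 227 were identical (91.9%). The Hamp window held GGCGCC starting 109 bases before the start and TTCTTGGAA starting 97 bases before it, whereas the Hamp2 window held TTCTTGGAA at 94 bases and no GGCGCC. Searched on both strands, GGCGCC was present in 9.59% and TTCNNNGAA in 7.02% of 32851 RefSeq windows of 250 bases. The E-box CACGTG, the core of the site that TFEB is known to bind, was present in 6.02% of them and in neither hepcidin window. Windows were matched for 7 of the 10 genes, and Slc11a2, Slc40a1 and Trf were not matched. Among the others, Tfrc held GGCGCC starting 89 bases before a start and Bmp6 held CACGTG starting 127 bases before its start. A match shows only that these letters are there.

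Of the 20 member probe sets, 17 entered the comparison over all probe sets, and 3 were array control sets of Tfrc, described below. With the limit set at 1.5-fold and an adjusted p under 0.05 (limma, Benjamini-Hochberg over 22626 probe sets), 4 of the 17 were higher in TFEB-overexpressing muscles, the 2 of Hamp and 2 of Tfrc, and 0 were lower, where 7.51% of all probe sets were higher and 6.11% lower (13.6% in either direction). The groups did not overlap in 13 of the 17, with 6 higher and 7 lower, where 49.9% of all probe sets had groups without overlap (20.1% higher and 29.7% lower). Both counts come from the contrast that chose the genes, and nothing is read from them.

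Hamp was the member with the largest difference. Its probe set 1419196_at read 8.38, 7.93 and 9.01 in TFEB-overexpressing muscles, against 4.08, 3.47 and 3.94 in GFP control muscles. The groups were separated by 3.85 log2 units between the lowest TFEB-overexpressing array and the highest GFP control array. The mean was 8.44 ± 0.543 in TFEB-overexpressing muscles and 3.83 ± 0.32 in GFP control muscles (SD, n = 3 each), a log2 difference of 4.61 ± 0.364 (TFEB-overexpressing minus GFP control ± SE, as for all members), or 24.44-fold, which ranked 2 among the 22626 probe sets compared. All 3 GFP control values lay below the 20th percentile of their arrays, at percentiles 9.6 to 17.5, so the fold rests on dim values, while the TFEB-overexpressing values lay at percentiles 71.0 to 84.1. The lowest Hamp value was still 0.45 above the highest value of the bacterial TrpnX control probe sets in its array, which read no mouse RNA. Leaving out GFP control replicate 2, the dimmest of the 3, gave a log2 difference of 4.43.

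The other Hamp probe set, 1419197_x_at, ordered the TFEB-overexpressing arrays the same way, with 7.73, 7.09 and 8.32, against 4.80, 4.70 and 3.86 in GFP control arrays. Its log2 difference was 3.26 ± 0.465, or 9.56-fold, and it ranked 25. The GFP control values were dim here too, at percentiles 14.3 to 27.0 of their arrays, with replicate 3 below the 20th. The suffix x_at marks probe sets that may also hybridise to other transcripts.

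Of the Hamp2 probe sets, 1436643_x_at read 7.62, 6.73 and 7.96 in TFEB-overexpressing muscles and 6.03, 5.96 and 5.79 in GFP control muscles, a log2 difference of 1.51 ± 0.376 (2.85-fold). The other, 1456289_at, read 4.97, 4.69 and 4.66 in TFEB-overexpressing muscles and 4.68, 4.84 and 5.18 in GFP control muscles, and the groups overlapped. The pair thus gave opposite signs, and the x_at set had the same order as Hamp among the TFEB-overexpressing arrays. Probe sequences were not used here, and how much Hamp RNA adds to the Hamp2 x_at set was not tested.

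**Figure D1:**
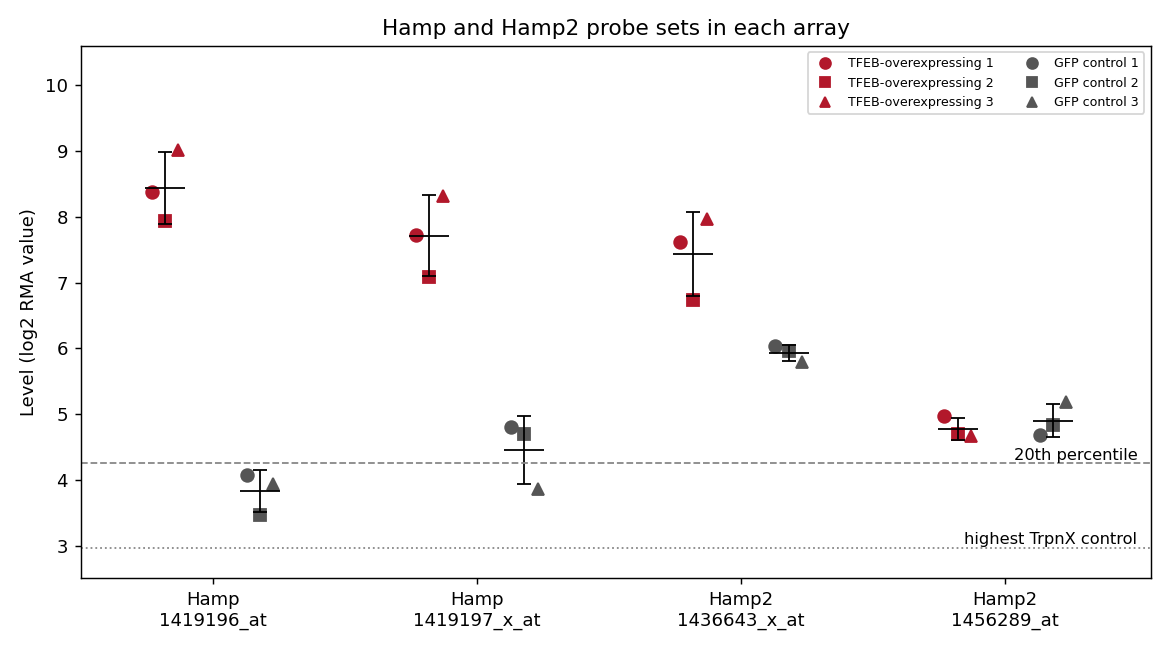
Log2 RMA level (vertical axis) of the Hamp and Hamp2 probe sets in each array, with TFEB-overexpressing arrays in red left of GFP control arrays in grey. Bars give the mean and SD of 3 arrays, the dashed line the mean 20th percentile of the arrays and the dotted line the mean of their highest TrpnX control value. For Hamp 1419196_at the TFEB-overexpressing arrays sit between 7.93 and 9.01 and the GFP control arrays between 3.47 and 4.08.

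Markers of the liver, the main known source of hepcidin, were low on average in all 6 arrays. The mean of 11 hepatocyte genes lay between 4.79 and 4.84 in TFEB-overexpressing arrays and between 4.96 and 5.19 in GFP control arrays, and 0 of the 11 passed the threshold in either direction. Alb (albumin) read 4.79, 4.79 and 4.74 in TFEB-overexpressing muscles and 5.20, 5.04 and 5.15 in GFP control muscles, below the array medians of 6.44 to 6.55. Cyp2e1, a cytochrome P450 also known in fat, was the exception, with 6.31, 7.59 and 7.51 in TFEB-overexpressing muscles and 8.27, 7.89 and 9.53 in GFP control muscles. A transcript known from neutrophils was higher beside Hamp, while most of the neutrophil markers were not. S100a8, a calgranulin of neutrophils, read 7.73, 7.36 and 8.30 in TFEB-overexpressing muscles and 4.50, 4.62 and 4.51 in GFP control muscles (limma adjusted p = 0.00049). Of the 9 neutrophil markers measured 7 did not pass, and the median log2 fold change of the 9 was -0.07, against -0.05 for all genes. Besides S100a8 only S100a9 passed, at 0.60 ± 0.107 (limma adjusted p = 0.0073). In a bulk sample, more cells of a type and more RNA per cell cannot be told apart.

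The genes whose 6 values ran most like those of Hamp 1419196_at were Cpxm2 (r = 0.9995), Meg3 (r = 0.9985), Myh3 (r = 0.9984), Gpnmb (r = 0.9983) and Casq2 (r = 0.9976), by Pearson correlation over 282 genes with an SD of at least 1 across the 6 arrays. Myh3, the embryonic myosin heavy chain, read 11.41, 10.84 and 11.91 in TFEB-overexpressing muscles and 6.11, 5.36 and 5.52 in GFP control muscles. Gpnmb, a glycoprotein of lysosomes and melanosomes, read 10.58, 10.14 and 10.93 in TFEB-overexpressing muscles and 6.18, 5.92 and 6.31 in GFP control muscles. As with Hamp, replicate 3 was the highest and replicate 2 the lowest TFEB-overexpressing array for all 5 genes. Of the 282 genes, 99 had r over 0.9, because any gene with a large group difference correlates over 6 arrays in 2 groups, so the value only describes the shared pattern.

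Bmp6, the ligand that drives hepcidin transcription in the liver, went the other way from Hamp. It read 5.66, 5.93 and 5.64 in TFEB-overexpressing muscles, against 6.28, 6.18 and 6.17 in GFP control muscles. The mean was 5.74 ± 0.166 in TFEB-overexpressing muscles and 6.21 ± 0.0597 in GFP control muscles (SD, n = 3 each), a log2 difference of -0.47 ± 0.102, or 1.38-fold lower. The groups did not overlap, and the difference was below the 1.5-fold limit.

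Tfrc, the receptor that takes up transferrin-bound iron, was higher on its brighter probe sets. Its brightest probe set, 1452661_at, read 12.03, 12.21 and 11.93 in TFEB-overexpressing muscles, against 11.37, 11.05 and 11.20 in GFP control muscles. The means of 12.06 ± 0.146 in TFEB-overexpressing muscles and 11.21 ± 0.162 in GFP control muscles (SD, n = 3 each) differed by 0.85 ± 0.126, or 1.80-fold, and all 6 values lay at percentiles 96.1 to 98.6 of their arrays. Probe set 1422966_a_at read 8.46, 8.86 and 8.17 in TFEB-overexpressing muscles and 8.0, 7.84 and 7.87 in GFP control muscles, a log2 difference of 0.59 ± 0.207 (1.51-fold), just inside the fold limit. Leaving out each array in turn gave 0.41 (without TFEB-overexpressing replicate 2) to 0.76 (without TFEB-overexpressing replicate 3). The call of 1422966_a_at was kept in 5 of 14 alternative settings and, of the arrays left out, only without TFEB-overexpressing replicate 3. That of 1452661_at was kept in all 14, each of which compares the groups that chose the gene, so nothing is read from it. With the probe sets of Tfrc averaged, the log2 difference was 0.52, under the fold limit. The third, 1422967_a_at, read 5.54, 6.05 and 5.45 in TFEB-overexpressing muscles and 5.77, 5.46 and 5.46 in GFP control muscles. Its groups overlapped, with TFEB-overexpressing replicate 2 alone above all GFP control arrays.

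The array also carries 3 control probe sets for Tfrc, placed towards the 3′ end, the middle and the 5′ end of its transcript, which serve to check RNA integrity. The 3′ set read 7.54, 8.10 and 7.41 in TFEB-overexpressing muscles and 7.32, 6.96 and 7.20 in GFP control muscles (log2 difference 0.52 ± 0.237), without overlap. The middle set read 4.76, 5.34 and 5.01 in TFEB-overexpressing muscles and 4.96, 4.53 and 4.75 in GFP control muscles. The 5′ set read 4.48, 5.10 and 4.44 in TFEB-overexpressing muscles and 4.98, 4.58 and 4.71 in GFP control muscles. The groups thus separated at the 3′ end only, and overlapped in the middle and at the 5′ end. The middle set lay at percentiles 23.1 to 34.0 of the arrays and the 5′ set at 22.9 to 30.8. The overlap there therefore rests on low values, at which a difference is hard to see.

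The drop along the transcript differed with the group. The 3′ set exceeded the 5′ set by 3.07, 3.00 and 2.97 log2 units in TFEB-overexpressing arrays and by 2.34, 2.39 and 2.49 in GFP control arrays. The same measure for beta-actin was 0.34, 0.22 and 0.30 in TFEB-overexpressing arrays and 0.06, 0.08 and 0.04 in GFP control arrays. The ends of both transcripts therefore stood further apart in every TFEB-overexpressing array, and the part of this gap in the Tfrc difference was not tested.

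**Figure D2:**
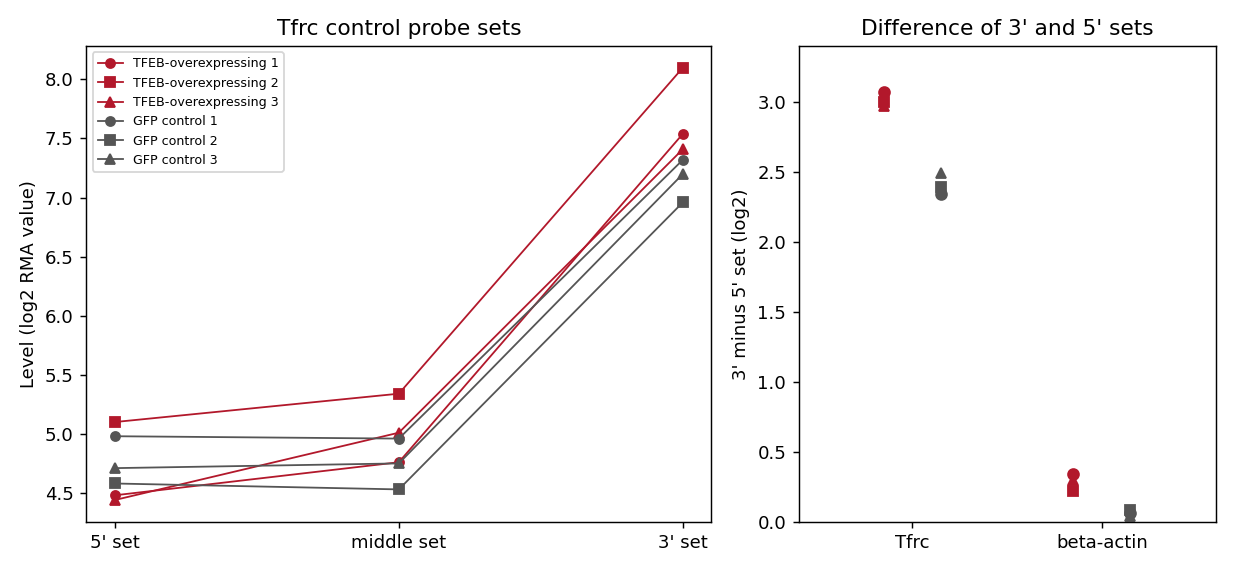
Left, log2 RMA level of the 5′, middle and 3′ control probe sets of Tfrc, joined by a line for each array. Right, the 3′ minus 5′ difference (log2) of Tfrc and beta-actin in each array, TFEB-overexpressing in red and GFP control in grey. For Tfrc the differences sit between 2.97 and 3.07 in TFEB-overexpressing arrays and between 2.34 and 2.49 in GFP control arrays.

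Transferrin itself could not be read, since its probe set was shared with Srprb. That set read 7.18, 8.15 and 8.05 in TFEB-overexpressing muscles and 7.98, 7.53 and 8.28 in GFP control muscles, and the groups overlapped.

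The 3 probe sets of Slc11a2 (DMT1), which moves iron out of endosomes and whose transcripts are known to end with or without an iron-responsive element, did not share a direction. Probe set 1417584_at read 6.83, 6.40 and 6.96 in TFEB-overexpressing muscles and 7.13, 7.12 and 7.26 in GFP control muscles (log2 difference -0.44 ± 0.173, 1.35-fold lower). Probe set 1452078_a_at read 7.39, 7.23 and 7.38 in TFEB-overexpressing muscles and 7.53, 7.44 and 7.53 in GFP control muscles (log2 difference -0.16 ± 0.0593). In both the groups did not overlap. Probe set 1426441_at read 7.21, 7.10 and 7.37 in TFEB-overexpressing muscles and 7.17, 6.69 and 7.07 in GFP control muscles, with overlap. None of the 3 passed the threshold, and the sources used here do not give the transcript form that each reads.

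Slc11a1 (NRAMP1), which moves iron and manganese out of the phagosomes of macrophages, turned on a single array. It read 6.44, 6.73 and 6.70 in TFEB-overexpressing muscles, against 5.32, 7.32 and 5.40 in GFP control muscles. GFP control replicate 2 had the highest value of all 6 arrays, whereas GFP control replicates 1 and 3 lay below every TFEB-overexpressing array. The log2 difference was 0.61 ± 0.66 with all arrays, not past the threshold, and 1.26 without GFP control replicate 2, past it.

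The arrays with the most Slc11a1 were also those with the brightest macrophage markers, and GFP control replicates 1 and 3 were lowest in both. The marker mean over 15 genes was 8.35, 9.18 and 9.12 in TFEB-overexpressing arrays and 6.91, 9.08 and 6.92 in GFP control arrays, and 12 of the 15 were over 2-fold higher in GFP control replicate 2 than in both other GFP control arrays. Of the 15, 1 passed the threshold, Cd68, a lysosomal glycoprotein that marks macrophages, which read 9.63, 9.69 and 9.84 in TFEB-overexpressing muscles and 6.19, 8.34 and 6.46 in GFP control muscles. The part of macrophages in the Slc11a1 values was not tested.

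**Figure D3:**
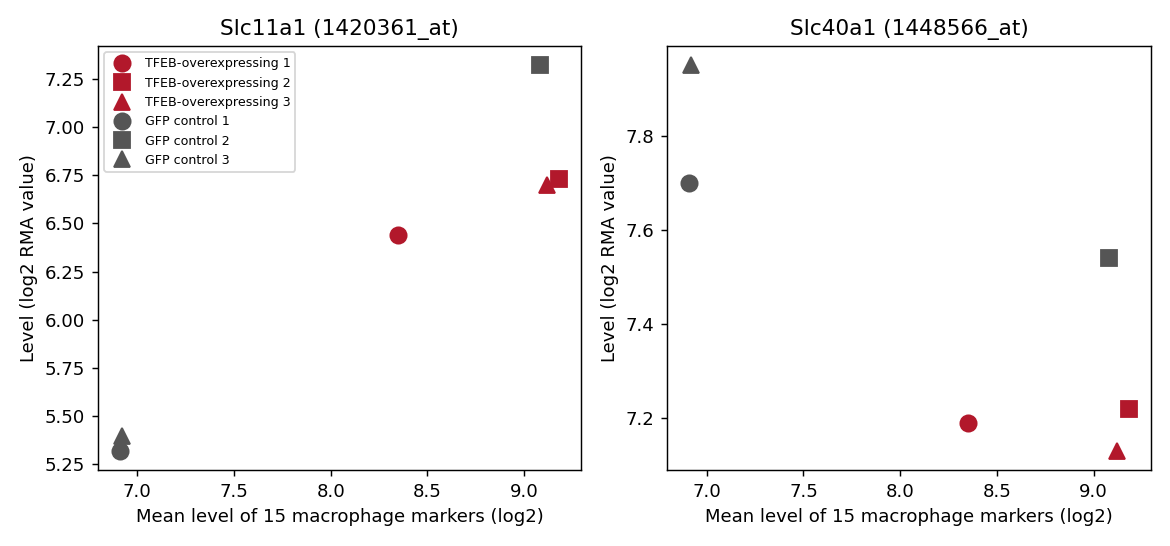
Log2 RMA level of Slc11a1 (left) and of ferroportin, Slc40a1 (right), against the mean log2 level of 15 macrophage markers, 1 point per array, TFEB-overexpressing in red and GFP control in grey. GFP control replicate 2 sits at a marker mean of 9.08 with the highest Slc11a1 value, 7.32, while its Slc40a1 value, 7.54, stays above all TFEB-overexpressing arrays.

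Fth1, the ferritin heavy chain that stores iron in oxidised form, was read by some of the brightest probe sets on the array, at percentiles 99.8 to 99.9. Probe set 1427021_s_at read 13.32, 13.47 and 13.38 in TFEB-overexpressing muscles, against 13.65, 13.66 and 13.65 in GFP control muscles (log2 difference -0.26 ± 0.0437, 1.20-fold lower). Probe set 1448771_a_at read 13.24, 13.24 and 13.21 in TFEB-overexpressing muscles, against 13.47, 13.38 and 13.44 in GFP control muscles (log2 difference -0.20 ± 0.0267, 1.15-fold lower). Every TFEB-overexpressing array was below every GFP control array in both, by less than the 1.5-fold limit. Array signals are known to saturate at such levels, which compresses differences.

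Slc40a1 (ferroportin), the only known iron exporter of mammalian cells and the target of hepcidin, was lower on both of its probe sets. Probe set 1417061_at read 8.87, 8.71 and 8.72 in TFEB-overexpressing muscles, against 9.26, 9.13 and 9.34 in GFP control muscles, with means of 8.77 ± 0.092 in TFEB-overexpressing and 9.24 ± 0.103 in GFP control muscles (SD, n = 3 each). Its log2 difference was -0.48 ± 0.0797, or 1.39-fold lower. Probe set 1448566_at read 7.19, 7.22 and 7.13 in TFEB-overexpressing muscles, against 7.70, 7.54 and 7.95 in GFP control muscles, a log2 difference of -0.55 ± 0.121, or 1.46-fold lower. The groups overlapped in neither. The fold stayed under the limit with all arrays, and 1448566_at was past it without GFP control replicate 2, with a log2 difference of -0.65. GFP control replicate 2, the GFP control array with the brightest macrophage markers, had the lowest GFP control value on both probe sets. Macrophages are known to express ferroportin, and their part in these values was not tested.

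Of the iron regulatory proteins, Aco1, which also serves as cytosolic aconitase, was higher on both probe sets. Probe set 1423644_at read 7.52, 7.43 and 7.56 in TFEB-overexpressing muscles and 7.11, 6.97 and 7.05 in GFP control muscles (log2 difference 0.46 ± 0.0568, 1.37-fold). Probe set 1456728_x_at read 9.30, 9.21 and 9.25 in TFEB-overexpressing muscles and 8.97, 8.84 and 8.80 in GFP control muscles (log2 difference 0.38 ± 0.0587, 1.30-fold). The groups did not overlap in either, and both differences were below the fold limit. Ireb2 read 8.49, 8.34 and 8.34 in TFEB-overexpressing muscles and 8.49, 8.43 and 8.40 in GFP control muscles, with overlapping groups and a log2 difference of -0.05 ± 0.0573.

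**Figure D4:**
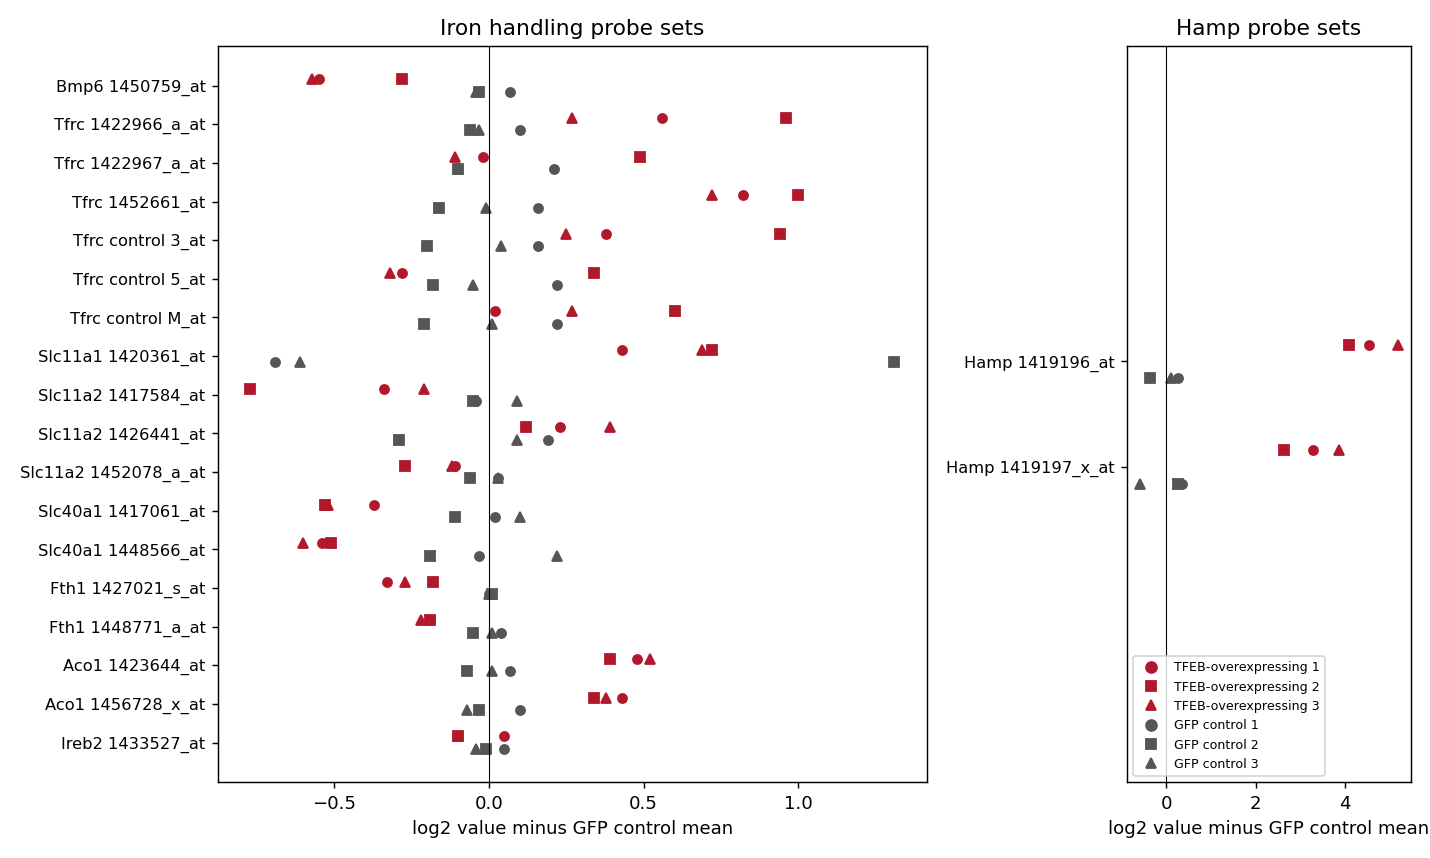
Log2 RMA level in every array, less the GFP mean of that probe set, for the 18 other member probe sets (left) and the 2 of Hamp (right, wider scale), with TFEB-overexpressing arrays in red above GFP control arrays in grey. Both Slc40a1, both Fth1 and the Bmp6 probe sets sit left of their GFP control arrays, both Aco1 probe sets right of them, and in Slc11a1 GFP control replicate 2 lies far right of the other GFP control arrays.

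The wider iron pathway was taken as 9 lists of 136 other genes, of which 112 had a probe set of their own. Of these, 9 were higher and 9 lower (16.1% called), where 13.5% of all 12393 genes were called, 8.62% higher and 4.9% lower. Without GFP control replicate 2 the higher genes numbered 14. The median log2 fold change of the 112 was -0.04, against -0.05 for all genes. Adjusted p-values below are from the limma fit over all probe sets, and each log2 fold change, TFEB-overexpressing over GFP control, stands with its SE from that fit.

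Among 16 genes of iron uptake, 2 were higher and 0 lower. Slc39a14 (ZIP14), a transporter of non-transferrin-bound iron, read 7.04, 6.72 and 6.94 in TFEB-overexpressing muscles and 6.14, 6.37 and 6.19 in GFP control muscles (log2 fold change 0.67 ± 0.11, limma adjusted p = 0.0058). Lrp1, the receptor for heme bound to hemopexin, had a log2 fold change of 0.80 ± 0.183 (limma adjusted p = 0.018), a call that was lost, at 0.69 to 0.76, without GFP control replicate 1 or 3 or TFEB-overexpressing replicate 2 or 3. Of 5 genes of storage and ferritin turnover, 0 passed the fold limit in either direction. Hfe, the hemochromatosis protein, had 0.36 ± 0.0735 (limma adjusted p = 0.012; 0.84, past the threshold, when its 2 probe sets were averaged) and Ncoa4, the cargo receptor for ferritin autophagy, -0.29 ± 0.0738 (limma adjusted p = 0.025).

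Among 4 genes of export and ferroxidases, 1 was lower and 0 higher. This was Flvcr1, a heme and choline transporter, with 5.27, 5.07 and 4.91 in TFEB-overexpressing muscles and 6.52, 6.07 and 6.24 in GFP control muscles (log2 fold change -1.19 ± 0.142, limma adjusted p = 0.0021). Its direction was that of ferroportin.

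Of 22 genes of BMP and SMAD control of hepcidin, 5 were lower and 1 higher, with a median log2 fold change of -0.23. The lower genes were Neo1, a co-receptor that binds hemojuvelin (-0.87 ± 0.138, limma adjusted p = 0.0051), the activin and BMP receptors Acvr2b (-0.83 ± 0.135, limma adjusted p = 0.0055) and Acvr2a (-0.62 ± 0.14, limma adjusted p = 0.017), the inhibitory Smad6 (-0.66 ± 0.129, limma adjusted p = 0.010) and the ligand Bmp4 (-0.81 ± 0.21, limma adjusted p = 0.027). Smad1, which carries the BMP signal to the nucleus, was higher, with 9.07, 9.10 and 9.14 in TFEB-overexpressing muscles and 8.34, 8.29 and 8.24 in GFP control muscles (0.82 ± 0.0662, limma adjusted p = 0.00074). Acvr2a and Bmp4 lost the call when most single arrays were left out (to -0.48 without GFP control replicate 1 for Acvr2a and -0.68 without TFEB-overexpressing replicate 1 for Bmp4), and leaving out GFP control replicate 3 took Smad6 below 1.5-fold (-0.55). Of the genes known to be switched on by BMP signalling, Smad6 was thus lower, and Atoh8, Id1 and Smad7, looked up after their values were seen, did not pass. Atoh8 had -0.03 ± 0.0628 (limma adjusted p = 0.75), Id1 had 0.44 ± 0.169 (limma adjusted p = 0.091; 0.59 and past the threshold without TFEB-overexpressing replicate 1) and Smad7 -0.23 ± 0.0635 (limma adjusted p = 0.034, under the fold limit). Hjv and Tmprss6, which set the strength of the signal in hepatocytes, and Erfe had no probe set of their own here.

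Of 15 genes of interleukin-6 and STAT3 control, 2 were lower and 1 higher. Jak2, the kinase that activates STAT proteins, read 7.84, 7.82 and 7.77 in TFEB-overexpressing muscles and 9.22, 9.25 and 9.17 in GFP control muscles (log2 fold change -1.40 ± 0.0656, limma adjusted p = 0.00026). The receptors Lifr and Osmr went opposite ways, with -0.67 ± 0.0788 (limma adjusted p = 0.0020) for Lifr and 0.73 ± 0.185 (limma adjusted p = 0.025) for Osmr. The call of Osmr was lost without any array other than GFP control replicate 2 or TFEB-overexpressing replicate 1, at 0.59 to 0.72. It was also lost, at 0.31 (limma adjusted p = 0.15), when the 2 probe sets of Osmr were averaged. Il6 was dim, with 3.31, 3.32 and 4.11 in TFEB-overexpressing muscles and 2.96, 3.49 and 3.15 in GFP control muscles. Stat3 and Socs3 had GFP control replicate 2 above the other GFP control arrays, at 9.61 against 8.43 and 8.27 for Stat3 and at 8.54 against 6.66 and 6.42 for Socs3, and neither passed with all arrays (limma adjusted p = 0.14 for Stat3 and 0.65 for Socs3). Without that array both were higher, Stat3 by 1.15 (limma adjusted p = 0.00071) and Socs3 by 1.02 (limma adjusted p = 0.0073). Both genes were named after their values were seen, and the array left out was the GFP control array highest in both. With all arrays and the 3 probe sets of each gene averaged, neither passed. Stat3 then had 0.36 (limma adjusted p = 0.28) and Socs3 0.33 (limma adjusted p = 0.64).

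None of the 7 measured genes of iron sensing and of other mRNAs with iron-responsive elements passed, and the smallest p-values were those of the ubiquitin ligase subunits Cul1 (-0.39 ± 0.0847, limma adjusted p = 0.015) and Skp1 (-0.26 ± 0.0661, limma adjusted p = 0.027). Of 15 genes of heme synthesis and breakdown, 2 were higher and 0 lower: Alas1, the first enzyme of heme synthesis outside red cells, with 10.42, 10.58 and 10.50 in TFEB-overexpressing muscles and 9.76, 9.70 and 9.83 in GFP control muscles (0.73 ± 0.0764, limma adjusted p = 0.0014), and Blvrb, a biliverdin reductase (0.78 ± 0.223, limma adjusted p = 0.037). Of the arrays left out in turn, only GFP control replicate 2 left Blvrb past the threshold (1.00). Of 17 genes of mitochondrial iron and iron-sulfur clusters, 1 was higher and 0 lower, Slc25a37 (mitoferrin), with 8.68, 8.40 and 8.64 in TFEB-overexpressing muscles and 7.87, 7.95 and 7.78 in GFP control muscles (0.70 ± 0.0985, limma adjusted p = 0.0034).

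Of 14 genes of the hypoxia response, a pathway known to lower hepcidin in the liver and to raise Tfrc, 2 were higher and 1 lower, with a median log2 fold change of -0.26. Adm (adrenomedullin), a vasodilator peptide, read 7.03, 6.65 and 7.23 in TFEB-overexpressing muscles and 5.55, 5.41 and 5.59 in GFP control muscles (1.45 ± 0.149, limma adjusted p = 0.0014). Hif1a was higher (0.98 ± 0.154, limma adjusted p = 0.0049; 0.33 when its 4 probe sets were averaged), and Egln1, the prolyl hydroxylase that marks its protein for degradation, was lower (-0.66 ± 0.0893, limma adjusted p = 0.0030). The other 11 did not pass.

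**Figure D5:**
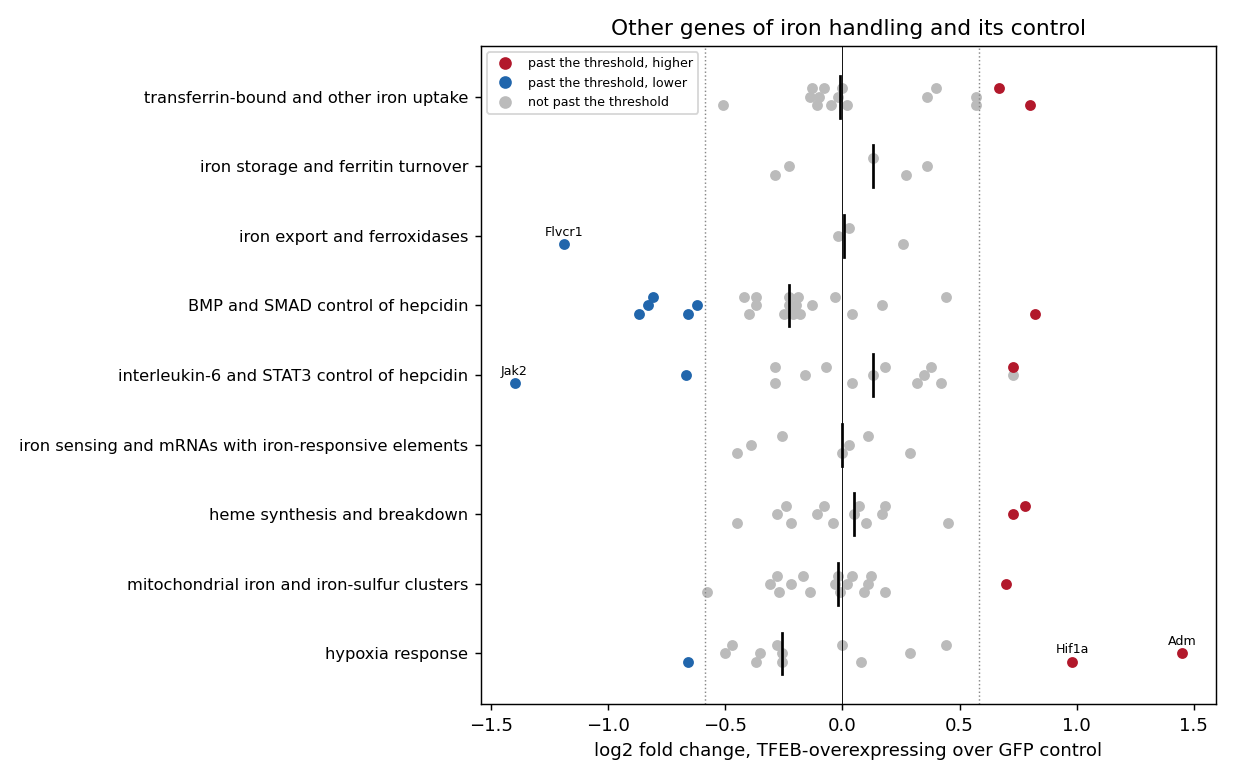
Log2 fold change, TFEB-overexpressing over GFP control (horizontal axis), of each measured gene of the 9 lists. Red points passed the threshold as higher, blue as lower, grey did not pass, black bars give each list's median and dotted lines the fold limit of 1.5. The BMP and SMAD list holds 5 lower genes and 1 higher, and Jak2 at -1.40 and Adm at 1.45 lie at the extremes.

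Markers of some of the other cells the samples could hold moved with the groups, and those of others did not. Of 7 fibroblast genes 4 were higher, with means of 11.13 to 11.45 in TFEB-overexpressing arrays and 10.15 to 10.39 in GFP control arrays. Of 7 endothelial genes 5 were higher, with means of 8.22 to 8.41 in TFEB-overexpressing arrays and 7.15 to 7.41 in GFP control arrays. Of 5 measured genes of red cells and their precursors, which take up iron through Tfrc, 0 passed, with means of 4.64 to 4.88 in TFEB-overexpressing arrays and 4.79 to 4.95 in GFP control arrays. Of 8 cardiac genes 2 were higher, Tnnt2 (cardiac troponin T, 11.28-fold, limma adjusted p = 0.00048) and Nppa (atrial natriuretic peptide, 1.76-fold, limma adjusted p = 0.017, and 0.056 without GFP control replicate 1), and the list's mean was 5.22 to 5.48 in TFEB-overexpressing arrays and 4.70 to 4.80 in GFP control arrays. Myh6, the cardiac myosin heavy chain, was dim, with 4.18, 3.66 and 3.82 in TFEB-overexpressing muscles and 3.77, 3.79 and 3.91 in GFP control muscles. The cardiac genes did not share a direction. Their median log2 fold change was 0.24, and the lowest was that of Tnni3 (-0.40 ± 0.179, limma adjusted p = 0.13), whose groups did not overlap. Of 6 adipocyte genes 0 passed, with a median log2 fold change of -0.53 and means of 6.84 to 7.18 in TFEB-overexpressing arrays and 7.14 to 8.01 in GFP control arrays. Of 8 lymphocyte genes 0 passed, with means of 5.12 to 5.31 in TFEB-overexpressing arrays and 6.11 in GFP control replicate 2, against 4.95 and 5.03 in the other GFP control arrays. The part of these cells in the member values was not tested.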

How the data were processed

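Total RNA of 6 muscles was labelled with biotin and hybridised to Affymetrix arrays, 1 array per mouse, with 3 arrays a group. The log2 values analysed are those the authors deposited, 1 per probe set and array; the submitters' processing notes name affy and RMA, with versions not stated. RMA evens out the distribution of values between arrays, so a shift of most transcripts would be partly removed. No probe set was tested for signal above background. The number of arrays limits the precision.

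Of 22690 probe sets, 64 array controls were left out and 22626 were compared by limma 3.58.1 (lmFit, then eBayes, two-sided, Benjamini-Hochberg adjustment) under R 4.3.3. The threshold was an adjusted p under 0.05 and a fold of at least 1.5, taken from a legend of the study, since the array methods were not among the sources used here. GEO's platform annotation gave 20380 probe sets 1 symbol, 691 several and 1555 none. A gene outside the members was read by its probe set of highest mean.

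The members, lists, tests and rules were chosen with earlier results of these data known. Named genes are all members, for each list the called genes of smallest p (up to 4 in the direction of most calls and 2 the opposite way), or the 2 of smallest p where none passed, the 5 genes most like Hamp and the first 3 markers of a list. Bmp4, Id1, Smad7, Il6, Atoh8, Stat3, Socs3, Cyp2e1 and Nppa were named after their values were seen. The fit was tested on simulated data, and 15 alternatives were run. Motifs were searched, and the hepcidin windows aligned, in Python 3.11.15 with Biopython 1.88.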

Additional observations from a re-analysis of the deposited data

How the results depend on the processing

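Averaging the probe sets of a gene gave 3.93 for Hamp and 0.52 for Tfrc, and leaving out an array gave 4.33 to 4.87 for Hamp 1419196_at. The count of member probe sets lower was 1 instead of 0 (Slc40a1 1448566_at) with arrays shifted to equal medians, with quantile normalization repeated, with array weights and without GFP control replicate 2. Leaving out each array gave 3 to 4 member probe sets higher and 0 to 1 lower. Of all probe sets, 1309 to 2428 were then higher and 1120 to 1794 lower. List genes numbered 6 to 14 higher and 6 to 12 lower, with 14 higher without GFP control replicate 2. Tfrc 1422967_a_at reversed, to -0.068, without TFEB-overexpressing replicate 2, in a range of -0.068 to 0.23 over the arrays left out.

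List medians near 0 changed sign. Export (0.005) became -0.064 at equal medians, -0.043 with averaged probe sets and, leaving out each array, ranged from -0.063 to 0.10. Uptake (-0.011) became 0.028 with repeated quantile normalization, 0.036 on the fast fibre genes, 0.009 without dim probe sets, 0.071 with weights and, leaving out each array, ranged from -0.092 to 0.19. Heme (0.047) became -0.022 at equal medians and -0.035 with averaged probe sets. Iron sensing became 0.047 and mitochondrial iron 0.024 on the fast fibre genes, and iron sensing ranged from -0.066 to 0.041 leaving out each array. The causes were not tested.

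Of the called list genes, Lrp1, Smad6, Acvr2a, Osmr, Blvrb, Slc39a14, Lifr, Hif1a and Bmp4 lost the call under at least 1 alternative, Osmr, Acvr2a, Blvrb and Bmp4 under 6 each. Atoh8 reversed, to 0.02, on the fast fibre genes. Socs3 reversed, to -0.04, without GFP control replicate 3, in a range of -0.04 to 1.02 leaving out each array. With averaged probe sets Hif1a had 0.33, Slc39a14 0.39, Lifr -0.53 and Osmr 0.31. The share of calls that were higher was 55.2%, 45.2% at equal medians and 62.5% on the fast fibre genes. The methods' t-test, named there for the study's data in general and not for the arrays, gave 1181 higher and 1082 lower, where limma gave 1700 and 1382. Deviations from the group means correlated between same-numbered arrays with r of 0.422, 0.166 and -0.233. Between arrays of unlike number r ran from -0.436 to 0.327. With 3 arrays a group these values cannot settle whether the numbers pair the samples, and the main fit used no pairing. A replicate block gave 1686 higher and 1366 lower probe sets, and 3 member probe sets higher. With 3 arrays a group, leaving out 1 array moved Slc11a1 between 0.26 and 1.26, and the fold of Hamp rests on dim GFP control values.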
